A study of Mus musculus with 4 samples.

Results

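The genes described here are 40 genes of the extracellular matrix, taken from the 40092 genes in the count table by their symbols. They comprise 19 collagen chains, small proteoglycans and matricellular proteins, elastic fibre proteins, lysyl oxidases, and surface and contractile markers of fibroblasts and mural cells. All 40 were listed in the table and 39 of them had enough counts to be tested. The exception was Cthrc1, a secreted protein of activated fibroblasts, which had 4 and 0 reads in the Ctrl libraries and 2 and 33 in the A5-CKO libraries. The libraries were made from alveolar type II (AT2) cells, the surfactant-producing progenitors of the alveolus, sorted from lung on day 14 after bleomycin, a drug that injures the alveolus and provokes fibrosis. The 2 Ctrl libraries came from Alkbh5 flox/+ mice and the 2 A5-CKO libraries from Alkbh5 flox/flox mice, the controls being littermates, and both genotypes also carried Sftpc-CreERT2 and Rosa26-mTmG and received tamoxifen. Sftpc-CreERT2 is a tamoxifen-inducible recombinase driven from the locus of an AT2 surfactant gene, and the reporter turns recombined cells from red to green, so sorting by GFP took cells that had recombined. Ctrl cells therefore carry a floxed allele too and can lose a single copy of Alkbh5, an m6A RNA demethylase, and the libraries hold no uninjured lung. The age of these mice and the number of animals behind each library are not given in the sources used here.

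Collagens are trimers whose chains wind into a triple helix. Fibrillar collagens give tissue its tensile strength and are laid down by fibroblasts and myofibroblasts, above all in the bleomycin-injured lung. Collagen IV instead forms the sheet-like network of the basement membrane under epithelium and endothelium, as the widespread trimer of α1 and α2 chains or as the trimer of α3, α4 and α5 chains, which in the alveolus is known from type I (AT1) cells. Lysyl oxidases crosslink collagen and elastin, and the small proteoglycans bind and space the fibrils.

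The libraries held from 18144865 to 20811757 counts, and a gene with 3 reads stood at 0.128 to 0.177 CPM, the read count scaled to library size and called the normalized count here. That limit covers the error of counting alone. Sftpc, which encodes surfactant protein C, made up 1.44% and 1.41% of the reads of the Ctrl libraries and 1.13% and 0.883% of those of the A5-CKO libraries. The targeted gene Alkbh5 had 81.7 and 152 normalized counts in Ctrl against 19.3 and 36.6 in A5-CKO, and the log2 difference was -2.06 (standard error, SE, 0.46). Its adjusted p was 0.528 in edgeR's quasi-likelihood test (Benjamini-Hochberg over all genes). Each knockout library was thus under each control, in the direction of its label, although reads from exons outside the deleted start of the gene still count. The 40 matrix genes together made up 0.435% of the reads of Ctrl 1 and 0.302% of those of Ctrl 2, against 0.320% for A5-CKO 1 and 0.667% for A5-CKO 2. The labels do not say which libraries shared a litter or a day of sorting or came from separate animals, so the p-values measure only the spread between these samples. With 2 libraries in each group a two-sided exact permutation test cannot give a p under 0.333.

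Sequence upstream of 3 collagen genes is shown first, Col4a5 and Col7a1 because the knockout libraries were the higher pair in each, and Col3a1 as a fibrillar collagen that differed between libraries of a genotype. Each stretch comes from a RefSeq promoter window on GRCm38.p6, where 23 of the 40 genes had an entry, reads along the plus strand, and ends at the base before the gene's RefSeq model, so that it lies outside every RefSeq gene and every GENCODE M21 exon. Col4a5 is shown by the 201 bases of chrX:141475169-141475369. Col7a1 is shown by the 250 bases of chr9:108953336-108953585, and Col3a1 by the 250 bases of chr1:45311288-45311537. Capitals mark matches on either strand to the TATA box (TATAAA), the CCAAT box (its letters being its name) or the GC box (GGGCGG).
Col4a5: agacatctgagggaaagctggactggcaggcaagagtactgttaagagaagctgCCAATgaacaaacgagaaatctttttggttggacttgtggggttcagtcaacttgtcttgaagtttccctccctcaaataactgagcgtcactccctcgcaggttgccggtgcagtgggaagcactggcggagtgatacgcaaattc
Col7a1: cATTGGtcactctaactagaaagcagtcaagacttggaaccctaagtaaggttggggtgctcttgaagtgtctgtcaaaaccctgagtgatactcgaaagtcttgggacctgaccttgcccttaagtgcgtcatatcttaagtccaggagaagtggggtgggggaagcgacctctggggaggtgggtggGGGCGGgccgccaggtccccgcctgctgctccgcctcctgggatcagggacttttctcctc
Col3a1: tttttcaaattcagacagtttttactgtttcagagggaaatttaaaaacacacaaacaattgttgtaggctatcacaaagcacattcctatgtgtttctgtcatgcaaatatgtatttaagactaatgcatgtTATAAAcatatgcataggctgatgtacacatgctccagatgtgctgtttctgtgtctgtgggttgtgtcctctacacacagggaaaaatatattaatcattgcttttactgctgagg

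The Col4a5 stretch held 1 CCAAT, which begins 147 bases before the gene model, and 28.6% of the 32851 promoter windows hold that motif over the same positions. The Col7a1 stretch was 56.4% G and C and held 1 CCAAT on the other strand, 249 bases before the model, and 1 GGGCGG, 61 bases before it. Those motifs occur in 33.8% and 32.7% of promoters over the same 250 positions. The Col3a1 stretch was 35.2% G and C and held 1 TATAAA, 117 bases before the model, against 12.4% of promoters. These matches are descriptions of the letters, not of binding. The RefSeq models of Col4a3 and Col4a4, which are read in opposite directions, overlap by 114 bases, and those of the similarly paired Col4a1 and Col4a2 on chromosome 8 by 85 bases. Whether reads were counted by strand is not given in the sources used here. If they were not, reads from those bases cannot be assigned to either gene.

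Compared per kilobase of the longest transcript, the genes spanned a wide range of levels. Sparc, a collagen-binding matricellular protein also made by many epithelial and endothelial cells, was first with a mean of 317 CPM per kb over the 4 libraries. Col4a1, Col6a1 and Col4a2 followed with 123, 116 and 109 CPM per kb. The order among these 3 cannot be taken as fixed, since Col4a1 alone ran from 82.2 to 146 CPM per kb between libraries. Eln, the gene of elastin, Col6a2 and Bgn came next with means of 32.4, 32.1 and 29.2. Their order is not fixed either, since Eln ran from 5.90 to 64.3 CPM per kb between libraries. The fibrillar genes Col1a1, Col1a2 and Col3a1 had 24.7, 22.0 and 20.0. Pdgfra and Pdgfrb, the receptors that define lung fibroblasts and pericytes, had 1.79 and 1.06 CPM per kb. The lowest were Lum, Cthrc1 and Col8a1, with 0.459, 0.373 and 0.264.

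Between genotypes, no matrix gene passed the test after adjustment. Of the 39 tested genes, 0 had an adjusted p under 0.05 in edgeR, as did 0% of all 16661 genes tested, and the lowest adjusted p among them was 0.528. DESeq2 on the same genes called 64 genes at its adjusted p, 0.444% of those it adjusted, none of them a matrix gene. At an unadjusted p under 0.05 edgeR gave 2 matrix genes higher in A5-CKO, Col4a3 and Col12a1, and 0 lower, while 4.48% of all genes tested were higher and 4.71% lower at that threshold, 9.18% in either direction. DESeq2 on the same genes gave 4 higher at its unadjusted p, Col7a1 and Fbn1 in addition, and 0 lower, beside 5.77% and 4.89% of all genes. With its default filtering it also gave 4 higher and 0 lower, beside 3.82% and 2.93%. The median log2 fold change of the 39 genes was 0.74, with 31 above 0 and 8 below, against -0.02 over all genes tested, of which 49.1% were above 0. This median turned to -0.84 without A5-CKO 2, with 9 genes above 0 and 30 below, and 24 of the 39 genes changed sign.

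Few of the genes separated the genotypes. Of the 39, 5 had both A5-CKO libraries above both Ctrl libraries and 4 had both below, which is a smaller share than the 20.3% and 23.5% of all genes tested. More of them differed between libraries of the same genotype. In 26 of the 39 genes A5-CKO 2 and Ctrl 1 were both above A5-CKO 1 and Ctrl 2, an order found in 15.6% of all genes tested. That order was not set in advance, so its count is a description and not a test. Col6a1, Col14a1, Pdgfra and Thy1 had none of these orders. In 28 of the 39 genes A5-CKO 2 was the highest library, against 20.2% of all genes.

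**Figure D1:**
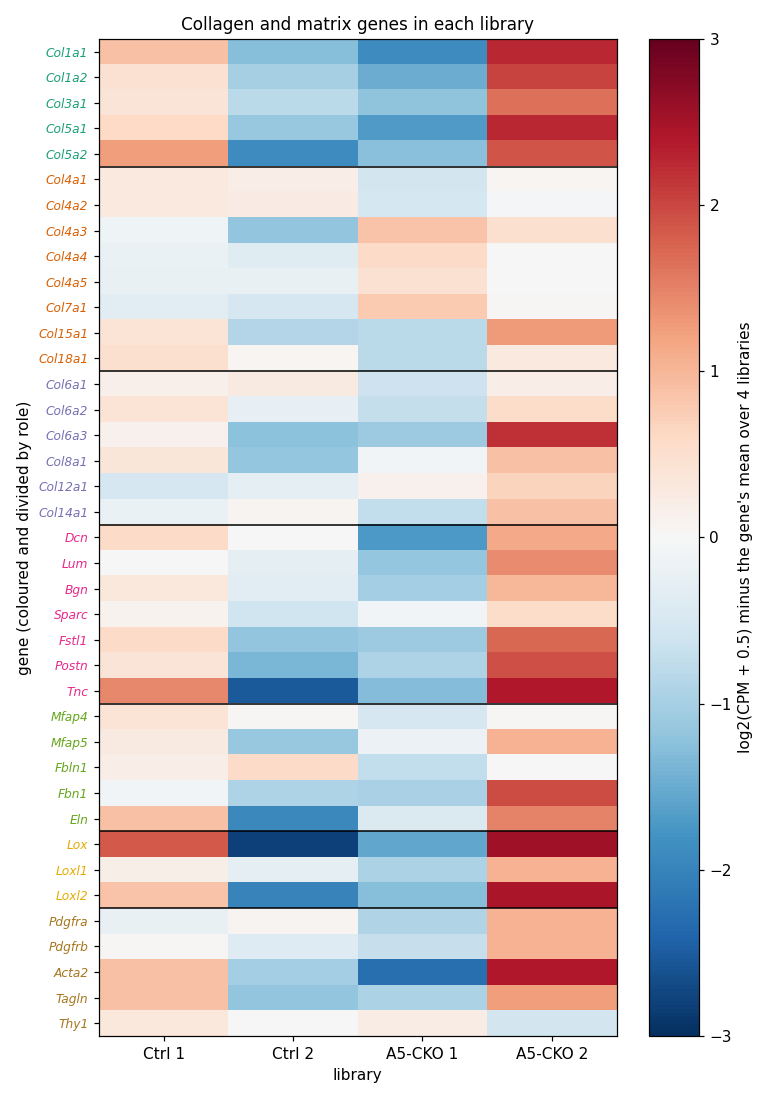
Heat map of the 39 tested matrix genes (rows, coloured and divided by role) in the 4 libraries (columns). Colour gives log2(CPM + 0.5) minus the gene's own mean over the libraries. The fibrillar collagens, lysyl oxidases and Tnc are red in A5-CKO 2 and Ctrl 1 and blue in Ctrl 2 and A5-CKO 1, while Col4a3, Col4a4, Col4a5 and Col7a1 are redder in both A5-CKO libraries.

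Among the basement membrane collagens, Col4a3 had 73.5 and 35.1 normalized counts in the Ctrl libraries and 146 and 113 in the A5-CKO libraries. The knockout libraries were the higher pair, and the Ctrl libraries differed from each other by 2.10 times. Ctrl averaged 54.3 ± 27.2 (SD, n = 2) and A5-CKO 129 ± 23.1 (SD, n = 2). Its log2 fold change was 1.25 (SE 0.41), the unadjusted p from edgeR's model across all genes was 0.0191 and the adjusted p was 0.528. With each library left out in turn the log2 fold change stayed between 0.79 and 1.96. It was 0.86 with offsets for GC content and length, where edgeR's unadjusted p was 0.149.

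The partner chains showed the same order at smaller size. Col4a4 had 97.0 and 85.9 normalized counts in Ctrl against 165 and 111 in A5-CKO. Col4a5 had 44.6 and 44.2 in Ctrl against 71.3 and 51.7 in A5-CKO. In both genes A5-CKO 1 was the highest library and A5-CKO 2 lay closer to Ctrl. The log2 fold changes were 0.59 (SE 0.32) for Col4a4 and 0.47 (SE 0.30) for Col4a5, with adjusted p of 0.561 and 0.602 in edgeR. Col4a4 fell to 0.24 with offsets for GC content and length, and to 0.28 without A5-CKO 1. Without A5-CKO 1, Col4a5 was at 0.22.

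Col4a1 and Col4a2, the chains of the widespread trimer, ran the other way. Col4a1 had 965 and 910 normalized counts in Ctrl against 544 and 827 in A5-CKO. Col4a2 had 848 and 818 in Ctrl against 480 and 677 in A5-CKO. Both A5-CKO libraries were below both Ctrl libraries in each gene, with A5-CKO 1 lowest. The log2 fold changes were -0.45 (SE 0.37) and -0.53 (SE 0.35), and the adjusted p in edgeR was 0.674 and 0.611. Without A5-CKO 1 they were -0.18 and -0.30.

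Ratios of chains within a library do not depend on the scaling of libraries. For each 100 reads of Col4a1 there were 7.61 and 3.85 reads of Col4a3 in Ctrl, against 26.8 and 13.7 in A5-CKO. For each 100 reads of Col4a2 there were 11.4 and 10.5 reads of Col4a4 in Ctrl against 34.4 and 16.4 in A5-CKO. Both ratios were higher in each A5-CKO library than in each Ctrl library, which follows from the orders of the single chains given above. In both ratios the A5-CKO libraries differed from each other by more than the lower of them exceeded the higher Ctrl library. Col4a5 gave 4.62 and 4.86 reads per 100 of Col4a1 in Ctrl against 13.1 and 6.25 in A5-CKO. Col4a2 per 100 reads of Col4a1, the chains of a single trimer, moved little, at 87.8, 89.9, 88.2 and 81.8. Col4a4 per 100 reads of Col4a3, partners in the other trimer, was less steady. It was 132 and 245 in Ctrl against 113 and 98.3 in A5-CKO.

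**Figure D2:**
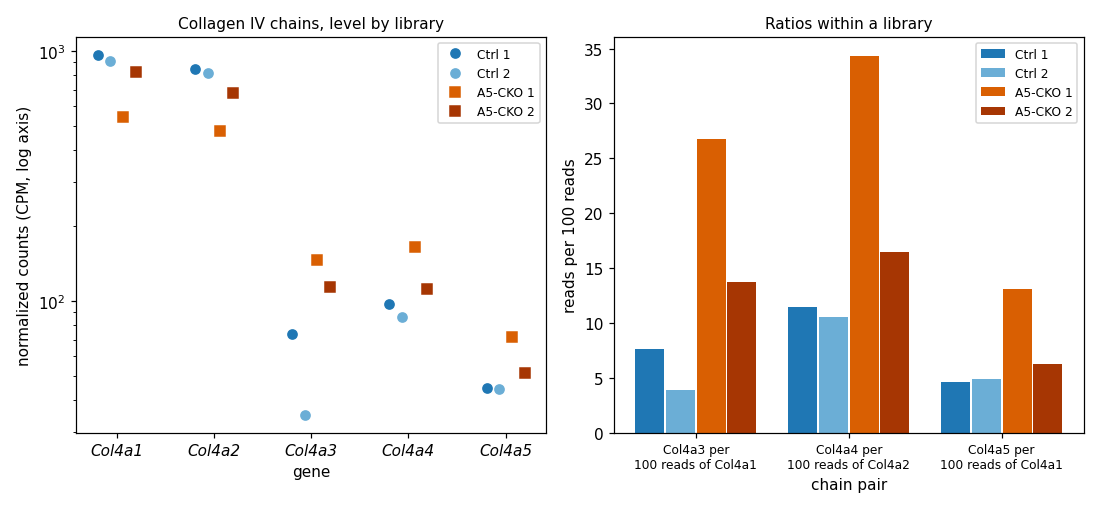
Collagen IV chains by library. The left panel plots normalized counts (CPM, log axis) of 5 chains, with circles for Ctrl and squares for A5-CKO. The right panel plots reads of a chain per 100 reads of its partner in each library, where Col4a3 per 100 reads of Col4a1 was 7.61 and 3.85 in Ctrl against 26.8 and 13.7 in A5-CKO.

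Of 12 AT1 markers 10 could be tested, of which 6 had the knockout libraries as the higher pair and 1, Aqp5, as the lower pair. Over all genes tested these orders were found in 20.3% and 23.5%. The summed level of the list was 2528 and 2448 CPM in Ctrl against 2723 and 2611 in A5-CKO, and its median log2 fold change was 0.69. Much of that sum came from Aqp5 and Emp2. Aqp5 had 981 and 951 CPM in Ctrl against 479 and 636 in A5-CKO. Emp2 had 829 and 951 in Ctrl against 872 and 1022 in A5-CKO. Ager, a defining AT1 gene, had 2 to 6 counts in each library, and Pdpn had at most 17 on its main copy, with a further copy on a fix patch of the assembly. The 12 AT2 markers had a median log2 fold change of -0.86, with 9 lower in both A5-CKO libraries, against 23.5% of all genes tested. They summed to 60442 and 88263 CPM in Ctrl against 45051 and 37538 in A5-CKO. The part of these shifts in the collagen IV values was not tested. In bulk libraries, fewer cells of a type and less RNA per cell cannot be told apart.

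Further genes whose genotypes did not overlap were Col7a1 and Col12a1. Col7a1, the chain of the anchoring fibrils that tie epithelium to its matrix, had 17.7 and 15.6 normalized counts in Ctrl against 39.1 and 22.8 in A5-CKO. Col12a1, a collagen that decorates fibrils, had 32.3 and 37.2 in Ctrl against 50.3 and 72.8 in A5-CKO. In each the A5-CKO libraries lay above Ctrl, but A5-CKO 1 was the higher in Col7a1 and A5-CKO 2 in Col12a1. The log2 fold change of Col7a1 was 0.90 (SE 0.40, adjusted p = 0.528 in edgeR) and 0.46 without A5-CKO 1. That of Col12a1 was 0.82 (SE 0.32, adjusted p = 0.528 in edgeR, unadjusted p = 0.0386). It fell to 0.34 with offsets for GC content and length and to 0.53 without A5-CKO 2. The transcript of Col12a1 is 11.5 kb long, and the median length was 5.27 kb for the matrix genes and 3.17 kb for all genes tested.

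Mfap4 and Fbln1, proteins of elastic fibres and microfibrils, were lower in both A5-CKO libraries. Mfap4 had 37.3 and 28.9 normalized counts in Ctrl against 19.7 and 28.8 in A5-CKO, so that Ctrl 2 and A5-CKO 2 were nearly level. Fbln1 had 7.10 and 9.37 in Ctrl against 3.49 and 6.11 in A5-CKO. Their log2 fold changes were -0.45 (SE 0.36) and -0.78 (SE 0.53), and neither passed the test, with adjusted p of 0.669 and 0.618 in edgeR. Mfap4 moved to -0.17 without Ctrl 1, -0.20 without A5-CKO 1, -0.19 with offsets for GC content and length and -0.14 with libraries scaled by total counts. Fbln1 moved to -0.43 without A5-CKO 1, -1.24 without A5-CKO 2 and -0.45 with total counts.

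The fibrillar collagens followed the libraries and not the genotypes. Col1a1, the main chain of collagen I, had 2487 and 559 reads in Ctrl, or 147 and 32.5 normalized counts, and 471 and 9031 reads in A5-CKO, or 21.3 and 386 normalized counts. A5-CKO 2 was 18.1 times A5-CKO 1 and Ctrl 1 was 4.52 times Ctrl 2, so that each genotype held a high and a low library. The log2 fold change was 1.18 (SE 1.19, adjusted p = 0.729 in edgeR). It was -2.07 without A5-CKO 2 and 2.10 without A5-CKO 1. Col1a2, the second chain of collagen I, had 103 and 36.8 in Ctrl against 26.2 and 305 in A5-CKO, and Col3a1 had 106 and 46.1 in Ctrl against 35.1 and 257 in A5-CKO. The minor fibrillar chains Col5a1 and Col5a2, which regulate fibril diameter, reached 77 and 62.8 in A5-CKO 2 and at most 6.87 in the low libraries. All 5 fibrillar genes, Col1a1, Col1a2, Col3a1, Col5a1 and Col5a2, had A5-CKO 2 highest, Ctrl 1 next and the other 2 libraries lowest. Summed, they took 0.0392% and 0.0109% of the counts in Ctrl and 0.0104% and 0.122% in A5-CKO.

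Among the genes that crosslink and contract, Lox and Acta2 had the widest ratios of the list between libraries of a genotype. This ranking leaves out ratios with 3 counts or fewer in the denominator, such as that of Lum, with 2 and 70 counts in A5-CKO. Lox, the lysyl oxidase that crosslinks collagen and elastin, had 767 and 23 counts in Ctrl against 86 and 1739 in A5-CKO, which is 45.4, 1.34, 3.89 and 74.3 normalized counts. Ctrl 1 was 33.9 times Ctrl 2, and A5-CKO 2 was 19.1 times A5-CKO 1. The log2 fold change between genotypes was 0.74 with a standard error of 1.54 (adjusted p = 0.881 in edgeR). Leaving out A5-CKO 2 turned it to -2.58, and leaving out Ctrl 1 raised it to 4.96. Loxl1 and Loxl2 also had A5-CKO 2 highest and Ctrl 1 next, with 26.6 and 14.5 for Loxl1 and 29.6 and 9.52 for Loxl2, but Loxl1 differed by only 4.16 times between the A5-CKO libraries and 1.40 times between the Ctrl libraries. Acta2, the smooth muscle actin that marks myofibroblasts, had 27.5 and 6.98 normalized counts in Ctrl against 2.67 and 80.2 in A5-CKO. A5-CKO 2 was 30.0 times A5-CKO 1, and its log2 fold change was 1.27 (SE 1.28, adjusted p = 0.732 in edgeR), turning to -2.69 without A5-CKO 2.

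Small proteoglycans and matricellular proteins behaved alike. Sparc had 755 and 466 normalized counts in Ctrl against 659 and 1033 in A5-CKO, and here the high and low libraries of a genotype differed by only 1.62 and 1.57 times. Its log2 fold change was 0.47 (SE 0.42, adjusted p = 0.697 in edgeR) and 0.11 without A5-CKO 2. All 7 tested genes of this group, which are Dcn, Lum, Bgn, Sparc, Fstl1, Postn and Tnc, had A5-CKO 2 and Ctrl 1 above the other 2 libraries. Bgn, biglycan, had 85.6 and 54.6 in Ctrl against 33.5 and 137 in A5-CKO. Postn, the myofibroblast product periostin, had 7.81 and 1.98 in Ctrl against 2.85 and 23.8 in A5-CKO. Tnc, the injury-induced matrix protein tenascin C, spanned the most of them, from 2.09 in Ctrl 2 to 78.4 in A5-CKO 2. Dcn, decorin, had its genotype means nearly level, with Ctrl at 22.1 ± 6.23 (SD, n = 2) and A5-CKO at 22.3 ± 24.5 (SD, n = 2), although A5-CKO 2 was 7.95 times A5-CKO 1.

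Eln had 163 and 22.7 normalized counts in Ctrl against 65.5 and 248 in A5-CKO. The libraries of the genotypes interleaved, with A5-CKO 2 highest, Ctrl 1 next and Ctrl 2 lowest, and the log2 fold change was 0.75 (SE 0.92, adjusted p = 0.784 in edgeR). It was -0.50 without A5-CKO 2 and -0.07 without Ctrl 2. Fbn1, the core of microfibrils, had 14.9 and 8.09 in Ctrl against 7.83 and 62.5 in A5-CKO, and its log2 fold change was 1.61 (adjusted p = 0.562 in edgeR). Without A5-CKO 2 it was -0.55. Mfap5, a microfibril protein, had 1.75 to 9.79 normalized counts with A5-CKO 2 highest.

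The chains of collagen VI, which form beaded microfibrils, did not move as a unit. Col6a1 had 514 and 555 normalized counts in Ctrl against 299 and 531 in A5-CKO, with A5-CKO 1 low and the other 3 within a narrow band. Col6a3 had 20.8 and 7.74 in Ctrl against 8.60 and 87.5 in A5-CKO, with A5-CKO 2 highest and Ctrl 1 next, 2.69 times Ctrl 2. The log2 fold changes were -0.36 (SE 0.39) and 1.75 (SE 0.98), the latter the largest of the list, with adjusted p of 0.746 and 0.568 in edgeR. That of Col6a3 was -0.73 without A5-CKO 2. Col6a2 also had A5-CKO 2 highest and Ctrl 1 next, with 199 and 124 in Ctrl against 90.3 and 217 in A5-CKO. Its log2 fold change was -0.07 (SE 0.48, adjusted p = 0.964 in edgeR). Among the low collagens, Col8a1, Col14a1 and Col15a1 had at most 9.75 normalized counts in any library. Col18a1, a basement membrane collagen whose cleaved end is endostatin, had 89.6 and 67.0 in Ctrl against 36.7 and 78.5 in A5-CKO. Pdgfra had 9.17 and 11.3 in Ctrl against 5.52 and 22.9 in A5-CKO, and Pdgfrb 5.20 and 3.78 in Ctrl against 2.99 and 10.9 in A5-CKO. Thy1, a surface protein of fibroblasts that is also carried by T cells, was unlike them, with its lowest level, 10.6, in A5-CKO 2 and 15.8 to 19.8 in the rest.

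**Figure D3:**
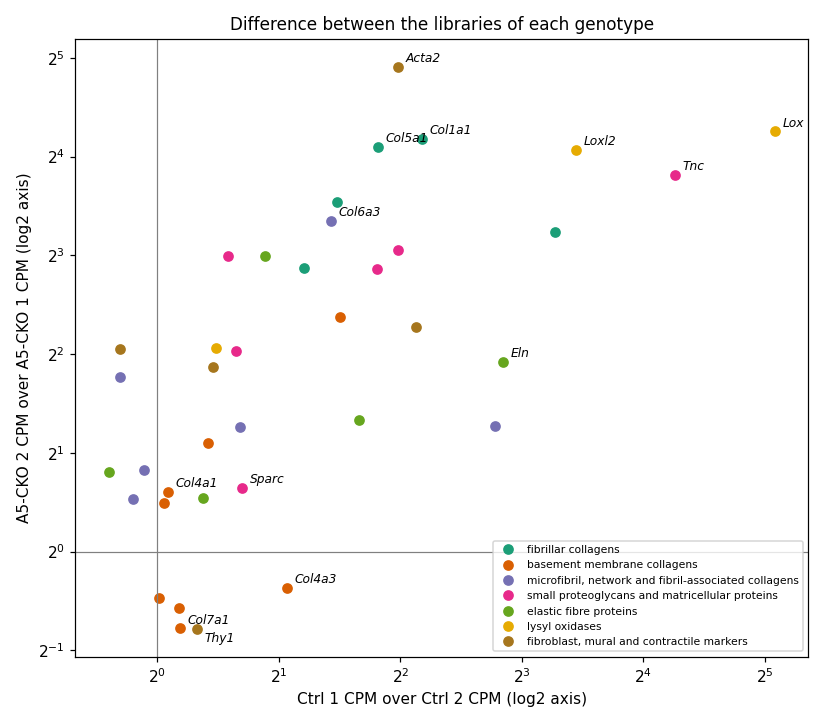
Difference between the libraries of a genotype for 38 matrix genes with more than 3 counts in both denominators, coloured by role (log2 axes). The horizontal axis is CPM in Ctrl 1 over Ctrl 2 and the vertical axis CPM in A5-CKO 2 over A5-CKO 1. Lox, Tnc, Loxl2, Col1a1 and Acta2 lie far to the upper right, while Col4a3, Col4a4, Col4a5, Col7a1 and Thy1 lie under the line of equal A5-CKO levels.

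Over the list, A5-CKO 2 exceeded A5-CKO 1 by a median of 3.94 times (38 genes with more than 3 counts in A5-CKO 1), and Ctrl 1 exceeded Ctrl 2 by a median of 1.62 times (39 genes), where the medians over all genes tested were 0.958 and 0.991. A difference of over 2 times between the A5-CKO libraries in this direction was found for 27 of the 39 genes, against 10.7% of all genes tested. Between the Ctrl libraries it was 18 of 39, against 12.9%. By contrast, A5-CKO 1 was above Ctrl 2 in 19 of the 39 genes, a share close to the 47.7% of all genes tested.

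**Figure D4:**
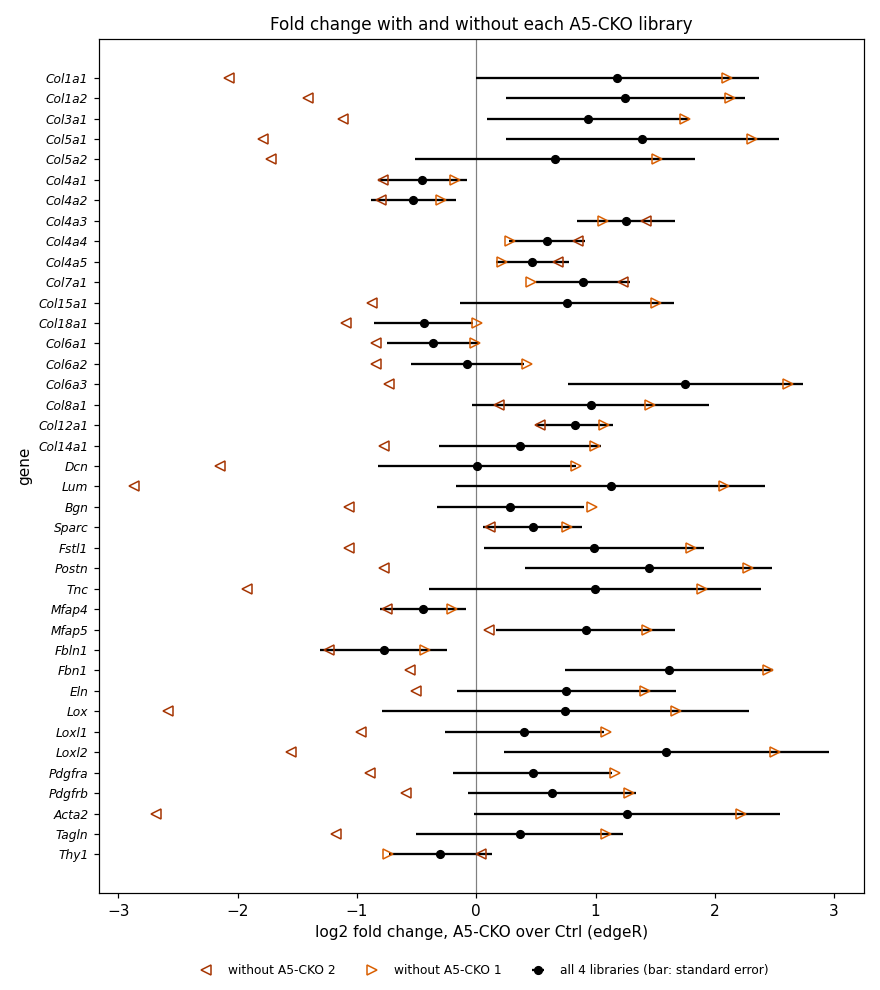
Log2 fold change of A5-CKO over Ctrl for the 39 tested genes (edgeR). Black points are the fit to all 4 libraries with standard errors as bars, and open triangles the fits without A5-CKO 1 or without A5-CKO 2. The triangles lie on opposite sides of 0 for most genes outside the basement membrane group, for example at 2.10 and -2.07 for Col1a1, and on the same side for the collagen IV genes.

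Markers of other cells were read beside this pattern. Of 16 mesenchymal markers, 14 of them outside the list of matrix genes, A5-CKO 2 and Ctrl 1 were both above the other libraries in 5 of those 14. Their summed level was 319 and 476 CPM in Ctrl against 252 and 403 in A5-CKO, most of it from Npnt alone, with 228 and 397 in Ctrl against 206 and 311 in A5-CKO. Weighting the 14 markers equally, their median log2 deviation from each gene's mean was 0.15 and -0.23 in Ctrl against -0.34 and 0.62 in A5-CKO, so that A5-CKO 2 and Ctrl 1 were the higher libraries, as for the matrix genes. Desmin (Des), a filament protein of smooth muscle and pericytes, had 5.85, 2.39, 1.77 and 30.3 normalized counts, whereas Tcf21, a transcription factor of resident fibroblasts, had 2.13, 3.72, 0.905 and 1.28. Of 14 leukocyte markers 11 had A5-CKO 2 and Ctrl 1 above the other libraries, with a sum of 1388 and 529 CPM in Ctrl against 641 and 1396 in A5-CKO. All 10 markers of transitional AT2 cells, the intermediates on the way to AT1 cells, had this order too, with a sum of 5555 and 2443 in Ctrl against 3314 and 5340 in A5-CKO. In the 11 tested of 12 endothelial markers it was 1, in 5 mesothelial markers 1, in 7 markers of club and ciliated cells 1, and in the AT2 and AT1 markers 0. Of all genes tested 15.6% had this order, and the counts of 1 are too small to be told apart from that share. The endothelial sum was 440 and 607 CPM in Ctrl against 362 and 478 in A5-CKO. Esam alone had 214 and 305 of it in Ctrl and 201 and 167 in A5-CKO. Cldn5 was at 0 in every library, although Cdh5, of the same list, had 446 to 1150 counts. The reason for that 0 was not tested. The mesothelial sum was 131, 54.0, 29.9 and 115. Msln, the 1 mesothelial marker with that order, had 113, 25.1, 24.3 and 89.2 of it. The club and ciliated sum was 2917, 2776, 1983 and 1333. The part of these cells in the levels of the matrix genes was not tested.

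The collagen biosynthesis list holds enzymes and chaperones, with export factors and collagen receptors such as Sec23a and Ddr1. In 9 of its 28 tested genes A5-CKO 2 and Ctrl 1 were both above the other libraries, against 15.6% of all genes tested. Of these collagen biosynthesis genes, 1 was higher and 1 lower in A5-CKO at an unadjusted p under 0.05 in edgeR, beside 4.48% and 4.71% of all genes tested, none passed the adjusted threshold, and the median log2 fold change was -0.05. Plod2, the lysyl hydroxylase linked to fibrotic crosslinks, had 4.49 and 1.40 normalized counts in Ctrl against 10.1 and 15.5 in A5-CKO. Its log2 fold change was 2.12 (SE 0.67, adjusted p = 0.528 in edgeR). Ppib, a proline isomerase of the endoplasmic reticulum that aids collagen folding, had 559 and 517 in Ctrl against 323 and 310 in A5-CKO. Its log2 fold change was -0.76 (SE 0.32, adjusted p = 0.528 in edgeR). The libraries of the genotypes did not overlap in either gene.

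Of 36 tested further mesenchymal genes, 2 were higher and 2 lower in A5-CKO at the same unadjusted threshold, numbers close to those shares of all genes, and the median log2 fold change was 0.34. Higher were Macf1, a cytoskeletal linker expressed in many cell types, with 110, 152, 277 and 208 normalized counts in the order used above, and Aspn, a small proteoglycan of connective tissue, with 0.237, 0, 0.543 and 1.71. The values of Aspn rest on few reads. Lower were Inmt, a methyltransferase of lung fibroblasts, with 48.3, 52.7, 22.5 and 10.3, and Serpinf1, a secreted serpin, with 50.7, 37.4, 22.7 and 18. This list includes the 14 mesenchymal markers outside the matrix genes that are given above. In it 20 of 36 tested genes had A5-CKO 2 and Ctrl 1 above the other libraries, against 15.6% of all genes.

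Beyond the list the table held 25 further collagen chains, of which 11 could be tested. Col23a1, a transmembrane collagen, had 48.8 and 63.7 normalized counts in Ctrl against 19.8 and 19.2 in A5-CKO. The genotypes did not overlap and the libraries of each lay close together, and the log2 fold change was -1.53 (SE 0.32, unadjusted p = 0.00216 and adjusted p = 0.528 in edgeR). Col2a1, the cartilage collagen, had 0.414 and 0.116 in Ctrl against 1.45 and 2.52 in A5-CKO, with a log2 fold change of 2.88 (SE 0.89, adjusted p = 0.528 in edgeR) on few reads. The other 9 had an unadjusted p above 0.05.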

How the data were processed

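AT2 cells were sorted for 2 Ctrl and 2 A5-CKO libraries on day 14 after bleomycin and sequenced in bulk. The authors trimmed the reads (Trim Galore 0.6.10 per the labels' processing notes), mapped them to mm10.p6 with HISAT2 2.2.1 and removed duplicates. They deposited raw read counts per gene from featureCounts 2.0.3, without normalization. The Methods give the counting under another assay, and it was taken here as that of these libraries. Their RNA-seq paragraph, which ends in peak calling, also removes reads matching ribosomal RNA. Whether that step was applied to these counts is not certain. No row named a second copy of any of the 40 genes, although other genes have copies on fix patches of the assembly. By RefSeq, 16 of the 40 overlap another gene.

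From the counts, edgeR 4.0.16 (R 4.3.3) was run with TMM factors (0.860 to 1.13), filterByExpr, glmQLFit and glmQLFTest, adjusting p-values by Benjamini-Hochberg for 16661 genes. edgeR's common dispersion was 0.173. CPM use TMM-scaled library sizes, and each standard error is the size of the fitted log2 difference over √F. Replicates are separate samples by their titles. Transcript length and GC content come from the longest GENCODE M21 transcript, found for all 40 genes and for 15237 of those tested. Alternatives were other scaling factors, DESeq2 1.42.0, limma voom (limma 3.58.1), other filters, the replicate number as a block, offsets for GC content and length (splines with 4 degrees of freedom) and each library left out in turn. The matrix genes and the lists were chosen with earlier results of these data known. By rule, genes given in every library are those with an unadjusted p under 0.05, those whose genotypes do not overlap and the most counted gene of each role, and in the other lists those with an unadjusted p under 0.05. The promoters shown, Col1a2, Col3a1, Col18a1, Bgn, Postn, Fbn1, Col6a3, Tnc, Dcn, Pdgfra, Pdgfrb, Thy1, Cthrc1, Des, Npnt and Tcf21 were chosen after their values were seen.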

Additional observations from a re-analysis of the deposited data

How the results depend on the processing

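No matrix gene had an adjusted p under 0.05 under any alternative run, and the lowest was 0.233, for Col4a3 in DESeq2 on the same genes. The count of matrix genes higher at an unadjusted p under 0.05 was 2. It was 5 when libraries were scaled by total counts alone, where 10.2% of all genes were higher and the median of all genes shifts from -0.02 to 0.30 (log2), 4 in both DESeq2 runs, 1 without a filter (2.91% of all genes), 1 with the replicate block (2.38%) and 0 with offsets for GC content and length (2.42%). Leaving out each library in turn gave 0 to 12, with 12 without A5-CKO 1 (2.75% of all genes), 5 without Ctrl 1 (5.85%) and 0 without Ctrl 2 (2.71%). The count lower was 0 and ranged from 0 to 3, with 3 when A5-CKO 2 was left out (2.24% of all genes). The matrix genes' median log2 fold change ranged from 1.5 without Ctrl 1 down to -0.84 without A5-CKO 2. With every library kept, at most 3 of the 39 genes changed sign under a setting, namely among Bgn, Dcn, Lum, Thy1 and Col6a2. Leaving out libraries gave ranges of -2.07 to 2.75 for Col1a1, -0.50 to 2.88 for Eln, -2.58 to 4.96 for Lox, -2.69 to 2.67 for Acta2 and -0.73 to 2.73 for Col6a3. Of the 75 tested genes in the biosynthesis, mesenchymal and further collagen lists 8 had an unadjusted p under 0.05, with 5 under the block and 4 to 14 with each library left out. Among all genes tested the share at that threshold was 9.18% in the main fit and 4.53% under the block. The count of 14 came without A5-CKO 1, where the share of all genes was 4.43%. That fit rests on a single A5-CKO library, so no conclusion is drawn from its count. Alkbh5 had an adjusted p under 0.05 in DESeq2 (log2 fold change -2.01 for the genes edgeR tested, and -2.02 with the tool's own filter). The replicate numbers were not taken as pairs, since the deviations of equally numbered libraries correlated at -0.35 over genes. Because each group has 2 libraries, the correlation of Ctrl 1 with A5-CKO 2 has the same size and the opposite sign. No block by crossed numbers was run. Causes were not tested. With 2 libraries in each group, the spread between libraries of a genotype limits these results.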
